A study of Homo sapiens with 5 samples.

Results

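The genes described here are 60 human genes of mitosis: the kinases and cyclins that start it, the kinetochore and the checkpoint that watches it, the motors and binding proteins of the spindle, the proteins that fold the chromosomes, and those that divide the cell. They were listed by symbol as genes of these functions, with earlier results of these data known, out of the 64837 entries counted in the RNA-Seq of NCI-H209, an established cell line from a human small-cell lung cancer (SCLC). Of the 60 symbols, 59 were found in the authors' gene list, and KIF15 was taken from the annotation. After the filter on low counts, 57 could be tested.

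The study asked how endothelial cells of brain vessels influence lung tumor cells. The control group was untreated NCI-H209, grown in RPMI-1640 to which 10% fetal bovine serum was added, in 3 libraries. The co-cultured group was the same line kept for 24 h in a Transwell chamber with human brain microvascular endothelial cells (HBMECs), in 2 libraries. The HBMECs were in the upper insert, separated from the tumor cells by a porous membrane, and RNA was taken from the tumor cells. The HBMECs were grown with Nu-serum besides fetal bovine serum, the medium during co-culture is not given in the sources used here, and a difference in serum, if there was one, cannot be told apart from the co-culture. The paper does not give the time in culture, the cell density or the presence of an insert for the control cells. A difference in these cannot be told apart from the co-culture either. No library with another cell type in the insert was among those used here, no gene was deleted and no drug was given, and NCI-H209 is a single line. The labels do not say whether replicates were separate cultures, so p-values measure only the spread between these libraries, which may be technical.

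In mitosis the cell condenses its chromosomes, builds a bipolar spindle of microtubules, attaches every chromosome to it through a kinetochore on the centromere, and then separates the copies and cleaves. CDK1 with a B-type cyclin drives entry, the spindle checkpoint holds the anaphase-promoting complex back until all kinetochores are attached, and Aurora B in the chromosomal passenger complex corrects faulty attachments. Most of these genes are transcribed mainly in G2 and mitosis, through promoters bound by the MuvB complex with B-MYB and FOXM1, and a CCAAT box and a cell cycle homology region (CHR) are typical elements of such promoters. SCLC is a fast-dividing neuroendocrine tumor in which RB1 is usually lost.

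The depth was 17317045 to 19157348 counts in control and 15457071 and 18918787 in the co-cultured libraries, so that 3 counts, taken as the floor, were 0.157 to 0.194 CPM, which are counts scaled to an equal library size. Control replicate 1 stood apart from the other two control libraries: the chi-square per degree of freedom over genes was 15.9 and 16.1 for its pairs, 5.75 for control replicates 2 and 3, and 4.19 for the co-cultured pair. Unmapped reads made up 8.13% to 8.48% in control and 16.8% and 15.9% in the co-cultured libraries, and their part in the results below was not tested. Of 18 endothelial markers, 8 were at 3 counts or fewer in every library, among them PLVAP and ECSCR at 0, and the summed level of the list was 10.1 to 19.6 CPM in control and 13.6 CPM in both co-cultured libraries. The highest in every library was VWF, at 8.45, 4.15 and 4.45 CPM in control and 4.76 and 5.95 CPM after co-culture. KDR and TEK varied between control libraries, with 37, 27 and 2 counts and 31, 24 and 0 counts. Thus the sum cannot tell whether endothelial RNA was present. One endothelial marker of 8 tested, ESAM, rose (12.5%, all genes tested 18.4%). Its level went from 0.159, 0.221 and 0.307 CPM in control to 1.15 and 0.925 CPM in co-cultured cells. The neuroendocrine markers of the line summed to 2332 to 2931 CPM in control and 3101 and 3252 CPM in co-cultured cells. CHGA, 1 of the 12, had no more than 1 count in any library, while SYP and SCG2 rose by 0.57 and 0.86 on the log2 scale, and DLL3 fell (log2 fold change -0.35).

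Most of the mitotic genes tested were lower in co-cultured NCI-H209 cells. They held 1.05%, 0.962% and 1.01% of all counts in control replicates 1, 2 and 3, and 0.687% and 0.701% in co-cultured replicates 1 and 2. With edgeR's quasi-likelihood test and Benjamini-Hochberg adjustment over 20360 genes, 41 of the 57 tested members fell at an adjusted p under 0.05, none rose, and 16 were not called. Among all 20360 genes, which were not selected in this way, 15.0% fell and 18.4% rose. No member was higher even at an unadjusted p under 0.05, by edgeR or by DESeq2 (0 genes each), while 45 and 42 members were lower at that threshold. In bulk RNA, fewer cells in mitosis and less RNA of these genes per cell cannot be told apart.

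Expressed as log2 fold change (co-cultured over control), the median of the 57 members was -0.511, with a range from -1.33 to 0.162, and 54 of the 57 values were below 0. Over all genes tested the median was -0.033. In 47 of the 57 members both co-cultured libraries lay below all 3 control libraries, which was the case for 30.0% of all genes tested. In SMC4 both lay above, and in the other 9 the groups overlapped. The study's methods give an absolute fold change over 1 and a p under 0.05. Read here as log2 fold change and unadjusted p, this criterion was met by 5 members, all lower: CDC25C, CDCA3, CENPA, PLK1 and ASPM. Among all genes 5.01% met it in that direction. That count was 9 with upper-quartile normalization and 3 without control replicate 1. With upper-quartile normalization the calls over all genes also turned from 3750 higher and 3059 lower to 3076 higher and 3929 lower, while 47 members fell and none rose.

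**Figure D1:**
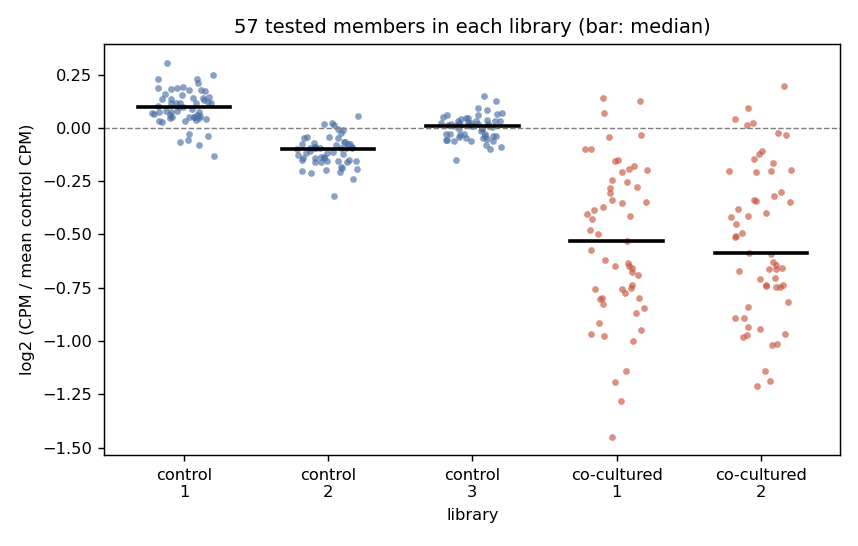
Level of each of the 57 tested members in each library, as log2 of its CPM over its mean CPM in control (y axis), with 1 point per gene and a black bar at the median. Most points of both co-cultured libraries lie below the dashed line of the control mean, and control replicate 1 lies above the other control libraries.

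The median level over the 57 members, on the log2 CPM scale, was 6.82, 6.58 and 6.65 in control and 6.06 and 6.14 after co-culture, with a pooled SD within groups of 0.107. Control replicate 1 gave the highest control value for 49 of the 57 members and control replicate 2 the lowest for 49. Without control replicate 1, 45 members fell. The lowest counts of members that fell came when a co-cultured library was left out: 28 without replicate 1 and 29 without replicate 2, with the remaining library assumed to vary like the controls. Of the 41 called members, 28 were called lower under all 13 alternatives tried. Without co-cultured replicate 1 the calls of CCNA2, CDK1, KIF20B, KIF2C, KIF4A, ANLN, PRC1, ECT2, TPX2, HMMR, CKAP2L, MKI67 and NCAPH were lost (adjusted p = 0.0574 to 0.283). Without co-cultured replicate 2 those of the same genes except HMMR were lost (adjusted p = 0.0592 to 0.211).

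The promoters are shown for members that moved together and for those that moved least. RefSeq start sites (GRCh38.p14) were at hand for 52 of the 60 members and 27305 genes in all, and the 250 bases before each start were searched on both strands for the CCAAT box (CCAAT), the CHR (TTTGAA) and the E2F site (TTTCCCGC, TTTCGCGC, TTTGCCGC or TTTGGCGC). None of these strings contains another. At least 1 start of the gene held a CCAAT box in 40 members (76.9%) against 37% of all genes, a CHR in 26 members (50%) against 16.1%, and an E2F site in 4 members (7.69%) against 3.4%. Both CCAAT and CHR stood in 21 members (40.4%) against 5.79% of all genes. Of the 39 tested members with a CCAAT box 32 fell, with a median log2 change of -0.674, and of the 10 without 4 fell (-0.196). Of the 25 with the CHR string TTTGAA 20 fell (-0.561), and of the 24 without this string 16 fell (-0.495). No other form of the CHR was searched. Of the 21 tested members with both, 19 fell, with a median log2 change of -0.674. Of the 28 tested members with a sequence but without both, 17 fell, with a median of -0.439. Over all genes tested 15.0% fell, and the share among those with each motif was not computed. The 10 without a CCAAT box include the kinetochore genes NDC80, CENPI, SKA3, NUF2 and CENPE, so motif and function cannot be told apart. No test was made of these splits. No sequence was used for BUB3, AURKA, KNL1, TPX2, UBE2C, BIRC5, TTK and CDCA2.

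The 4 members with the smallest p among those with both elements were ASPM, a spindle pole protein (chr1:197146670-197146919, minus strand), CDC25C, the phosphatase that activates CDK1 (chr5:138331805-138332054, minus strand), KIF23, a kinesin of the central spindle (chr15:69414099-69414348, plus strand), and INCENP, the scaffold of the chromosomal passenger complex (chr11:62123761-62124010, plus strand). Below them stand the 2 members with the largest p: KIF11, the kinesin that pushes spindle poles apart (chr10:92592880-92593129, plus strand), and CDC25B, the phosphatase that acts on CDK1 early, at the centrosome (chr20:3786701-3786950, plus strand). Each is written 5′ to 3′ on the strand of the gene and ends at the base before the RefSeq start, with matches of the 3 motifs, on either strand, in capitals. Other annotated starts can lie inside the stretch shown.
ASPM: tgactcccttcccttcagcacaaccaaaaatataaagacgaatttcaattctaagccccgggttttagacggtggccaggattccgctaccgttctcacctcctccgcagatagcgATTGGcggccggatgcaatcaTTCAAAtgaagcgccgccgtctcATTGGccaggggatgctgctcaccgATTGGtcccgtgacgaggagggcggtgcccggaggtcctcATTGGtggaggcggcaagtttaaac
CDC25C: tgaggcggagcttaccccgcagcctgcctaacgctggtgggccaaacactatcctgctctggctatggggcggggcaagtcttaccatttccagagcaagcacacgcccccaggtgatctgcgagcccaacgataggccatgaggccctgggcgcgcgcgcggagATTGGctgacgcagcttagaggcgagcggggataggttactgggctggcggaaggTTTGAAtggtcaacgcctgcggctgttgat
KIF23: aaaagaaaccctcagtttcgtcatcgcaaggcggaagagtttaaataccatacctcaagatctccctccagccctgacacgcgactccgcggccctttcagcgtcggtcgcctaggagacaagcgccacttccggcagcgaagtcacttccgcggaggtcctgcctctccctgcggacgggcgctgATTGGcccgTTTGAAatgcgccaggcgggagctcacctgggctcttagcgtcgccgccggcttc
INCENP: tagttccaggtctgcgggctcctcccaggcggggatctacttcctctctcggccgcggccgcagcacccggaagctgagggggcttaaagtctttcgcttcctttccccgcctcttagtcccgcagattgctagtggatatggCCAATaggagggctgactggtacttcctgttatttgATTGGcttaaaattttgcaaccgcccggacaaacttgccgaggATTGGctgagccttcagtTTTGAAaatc
KIF11: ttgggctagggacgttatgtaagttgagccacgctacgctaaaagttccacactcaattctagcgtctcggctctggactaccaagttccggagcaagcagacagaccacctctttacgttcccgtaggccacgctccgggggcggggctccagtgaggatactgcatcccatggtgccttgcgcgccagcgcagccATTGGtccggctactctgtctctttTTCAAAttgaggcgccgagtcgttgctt
CDC25B: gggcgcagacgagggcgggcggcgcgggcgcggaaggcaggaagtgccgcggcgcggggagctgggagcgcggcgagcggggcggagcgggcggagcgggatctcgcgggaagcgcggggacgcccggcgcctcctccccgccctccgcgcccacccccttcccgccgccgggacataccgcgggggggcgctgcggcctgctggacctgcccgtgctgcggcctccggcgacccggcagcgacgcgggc
In CDC25C the CCAAT box ran from -85 to -81 and the CHR from -30 to -25, counted back from the start. In KIF23 they ran from -64 to -60 and from -55 to -50, and in KIF11 from -53 to -49 and from -28 to -23. KIF11, whose level did not pass the test, held the same pair as members that fell. The stretch of CDC25B held neither. It is the first of 4 starts listed, of which at least 1 other held a CCAAT box. For the 4 members with the smallest p, the start shown is the first that held both elements, so their matches were fixed by that choice. CDC25C also has 4 starts listed, so its stretch and that of CDC25B were not picked alike. A match of letters is a description and not a bound site.

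Of the 9 cyclins, kinases and phosphatases of mitotic entry and progression, 8 fell (88.9%), while 15.0% of all genes tested fell. The median log2 change of this group was -0.714. CDC25C had 38.3, 40.7 and 41.4 CPM in control replicates 1 to 3, and 14.7 and 17.3 CPM in co-cultured replicates 1 and 2. The fall of CDC25C was 2.51-fold, with a log2 fold change of -1.33 (SE 0.11, adjusted p = 7.12e-05), and no co-cultured value reached the control values. AURKA, the Aurora A kinase of the spindle poles, had 57.9, 55.0 and 57.4 CPM in control and 33.6 and 35.6 CPM after co-culture, a log2 fold change of -0.71 (SE 0.083, adjusted p = 0.000342). PLK1, the Polo-like kinase needed for entry, spindle assembly and cytokinesis, had 79.3, 62.3 and 66.5 CPM in control and 30.3 and 36.1 CPM after co-culture, a log2 fold change of -1.07 (SE 0.13, adjusted p = 0.000357). Both kinases were lower in both co-cultured libraries than in any control library. CDC25B, in contrast, had 184, 137 and 151 CPM in control and 147 and 162 CPM after co-culture, so that the groups overlapped, and its log2 fold change was -0.028 (SE 0.12, adjusted p = 0.877). Its sign turned when reads were counted without strand or when control replicate 1 or co-cultured replicate 1 was left out. The other members of this group all fell. The cyclins had log2 fold changes of -0.85 for CCNB1 and -0.81 for CCNB2, the B-type partners of CDK1, and of -0.50 for CCNA2, the A-type cyclin of S and G2 phase. NEK2, a centrosome kinase, had a log2 fold change of -0.69 and CDK1 itself one of -0.38 (adjusted p = 0.00855).

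CDCA3, an adaptor of the ubiquitin ligase that degrades the CDK1 inhibitor kinase WEE1, stands alone in its group. It had 59.0, 62.5 and 62.8 CPM in control replicates 1 to 3, and 25.3 and 27.9 CPM in co-cultured replicates 1 and 2. The groups did not overlap, the fall was 2.31-fold, and the log2 fold change was -1.21 (SE 0.09, adjusted p = 4.73e-05), the smallest p of all 57 members.

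**Figure D2:**
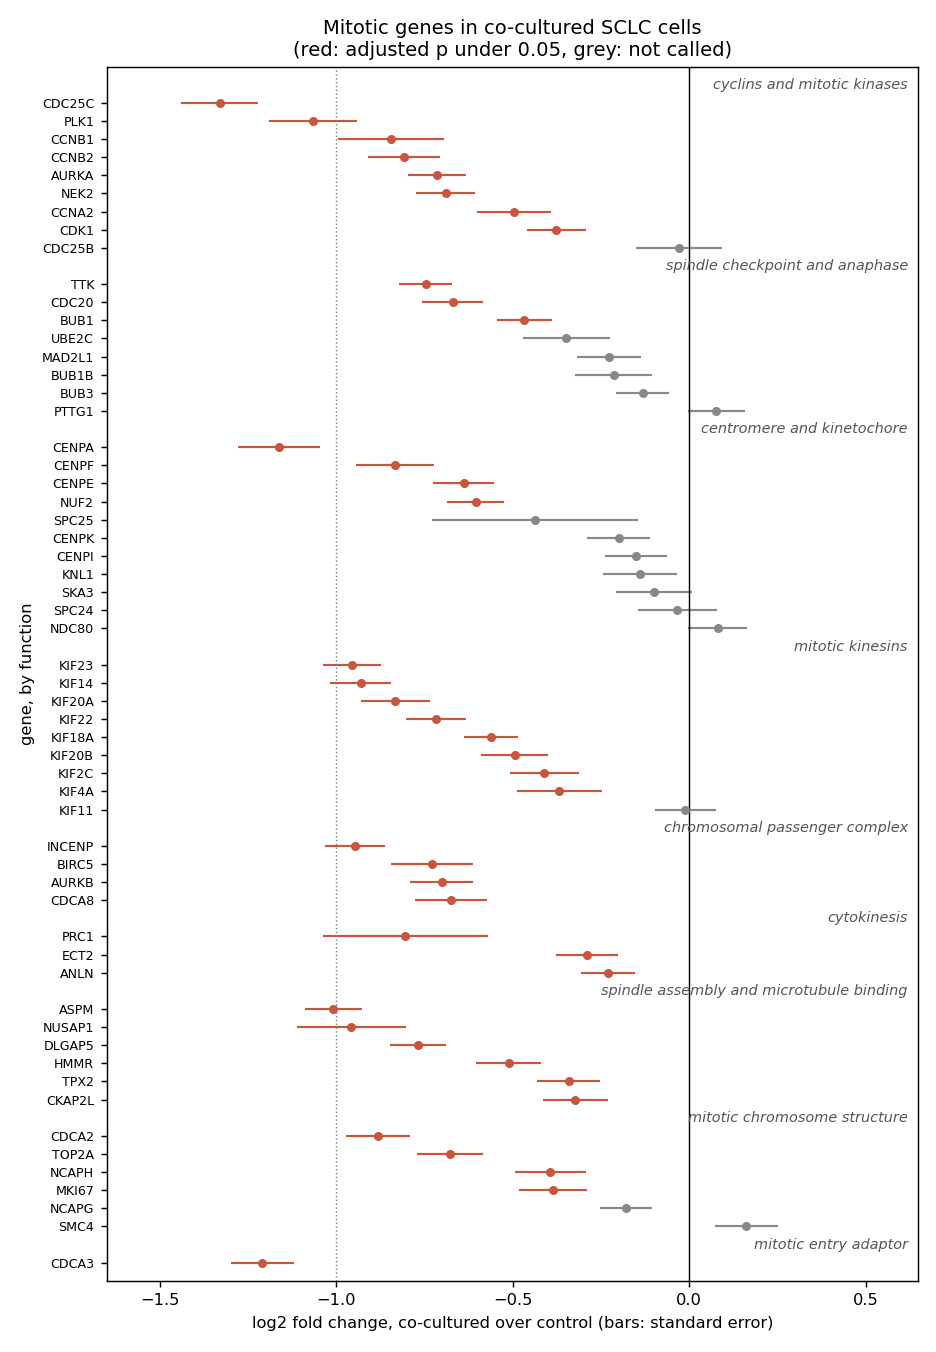
Fitted log2 fold change (x axis, co-culture against control) for the 57 tested members, grouped by function and ordered within each group, with bars for the standard error. Red points have an adjusted p under 0.05 and grey points do not, and the dotted line marks the study's threshold of -1. The passenger complex, cytokinesis and spindle assembly groups are red throughout, and most of the kinetochore and checkpoint groups are grey.

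In the chromosomal passenger complex all 4 members fell (all genes tested 15.0%), with a median log2 change of -0.715. INCENP had 103, 91.6 and 98.3 CPM in control and 51.8 and 49.5 CPM after co-culture, with a log2 fold change of -0.95 (SE 0.085, adjusted p = 0.000105). AURKB, the Aurora B kinase that the complex carries, had 48.4, 44.8 and 47.6 CPM in control and 29.8 and 27.9 CPM after co-culture, with a log2 fold change of -0.70 (SE 0.089, adjusted p = 0.000545). In both genes the co-cultured libraries lay below the control libraries by more than the spread within either group. CDCA8, also called Borealin, had 178, 142 and 154 CPM in control and 97.8 and 100.2 CPM after co-culture and a log2 fold change of -0.67 (SE 0.10, adjusted p = 0.00135). BIRC5, or Survivin, which targets the complex to centromeres, had 112, 85.2 and 93.8 CPM in control and 57.8 and 59.5 CPM after co-culture and a log2 fold change of -0.73 (SE 0.12, adjusted p = 0.00168). Of the 4 it had the largest p, and control replicate 1 was its highest value. Each of the 4 was called lower under every alternative.

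Of the 11 kinesins, 9 could be tested and 8 of these fell (88.9%, all genes tested 15.0%), with a median log2 change of -0.561. KIF23, which with a GTPase-activating partner bundles the central spindle, had 152, 135 and 145 CPM in control and 73.3 and 75.4 CPM after co-culture, a fall of 1.94-fold with a log2 fold change of -0.95 (SE 0.082, adjusted p = 8.99e-05). KIF14, which binds PRC1 and citron kinase at the midbody, had 147, 129.9 and 134 CPM in control and 70.1 and 73.7 CPM after co-culture, with a log2 fold change of -0.93 (SE 0.085, adjusted p = 0.000116). KIF20A, which brings the passenger complex to the midzone, had 86.1, 71.3 and 81.3 CPM in control and 44.3 and 45.1 CPM after co-culture, with a log2 fold change of -0.83 (SE 0.097, adjusted p = 0.000353). These are motors of the central spindle or midbody, and in each of them the groups were separate. On the log2 scale KIF22, a chromosome arm motor, changed by -0.72, KIF18A, which dampens chromosome movement, by -0.56, KIF20B, a midzone motor, by -0.49, KIF2C, a microtubule depolymerase at centromeres, by -0.41 and KIF4A, a chromosome and midzone motor, by -0.37, and each of these passed the test. KIF4A lost its call without regard to strand (adjusted p = 0.0911) and without control replicate 3 (0.0543). KIF11 had 302, 261 and 274 CPM in control and 271 and 283 CPM after co-culture. The 2 co-cultured values of KIF11 lay within the control range, and its log2 fold change was -0.011 (SE 0.087, adjusted p = 0.938), the largest p of the members. Its value was 0.041 without regard to strand, 0.053 without control replicate 1 and 0.031 without co-cultured replicate 1. KIFC1, a minus-end motor that clusters centrosomes, had 0, 3 and 1 counts in control and 1 and 2 counts after co-culture on the primary assembly, and KIF15, a partner of KIF11 in spindle bipolarity, had 0 in every library. KIFC1 also has an entry on an alternate haplotype sequence with 18 to 36 counts per library. Reads that map to several entries are not counted, so these counts can understate its level. With its entries summed, an alternative added after seeing the data, KIFC1 had a log2 fold change of -0.14 (SE 0.28, adjusted p = 0.743) and was not called. For KIF15 no comparison was possible.

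All 6 members of spindle assembly and microtubule binding fell (all genes tested 15.0%), with a median log2 change of -0.64. ASPM had 571, 525 and 554 CPM in control and 275 and 272 CPM after co-culture, a fall of 2.01-fold with a log2 fold change of -1.01 (SE 0.081, adjusted p = 6.66e-05). DLGAP5, or HURP, which stabilizes kinetochore fibers, had 125, 115 and 124 CPM in control and 69.9 and 72.8 CPM after co-culture, with a log2 fold change of -0.77 (SE 0.079, adjusted p = 0.000201). NUSAP1, a protein that bundles microtubules near chromosomes, had 10.0, 9.68 and 11.3 CPM in control and 5.36 and 5.28 CPM after co-culture, with a log2 fold change of -0.96 (SE 0.15, adjusted p = 0.00178). In each of them the co-cultured values were below all control values. NUSAP1 shares 62.2% of its exon bases with AC087721.2 on the same strand, and reads on such bases are not assigned to either gene, so that its level counts only the rest. CKAP2L, a spindle pole protein, was the member of this group with the largest p. It had 58.3, 50.3 and 57.0 CPM in control and 44.7 and 43.7 CPM after co-culture and a log2 fold change of -0.32 (SE 0.092, adjusted p = 0.0249). The call of CKAP2L was lost without regard to strand (adjusted p = 0.0536) and without control replicate 3 (0.0774). The remaining members were HMMR, a spindle pole and hyaluronan-binding protein, with a log2 fold change of -0.51, and TPX2, the activator of Aurora A, with -0.34 and an adjusted p of 0.0531 without control replicate 3.

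The 3 genes of cytokinesis fell (all genes tested 15.0%), with a median log2 change of -0.288. PRC1, which crosslinks antiparallel microtubules of the midzone, had 4.25, 3.59 and 4.61 CPM in control and 2.68 and 2.05 CPM after co-culture, with a log2 fold change of -0.80 (SE 0.23, adjusted p = 0.0271). Of its exon bases 57.6% are shared with AC068831.7 on the same strand, and 52.0% of the reads over PRC1 lay on the opposite strand, so that the value for PRC1 is uncertain. ECT2, the exchange factor that activates RhoA at the cleavage site, had 239.8, 208 and 210.4 CPM in control and 181 and 178 CPM after co-culture, with a log2 fold change of -0.29 (SE 0.088, adjusted p = 0.0326). ANLN, or anillin, a scaffold of the contractile ring, had 203 to 217 CPM in control and 176 and 182 CPM after co-culture, with a log2 fold change of -0.23 (SE 0.076, adjusted p = 0.0444). The groups did not overlap in these genes. ANLN was the least stable call of the 41: its adjusted p was 0.0603 with DESeq2, 0.0519 with median-ratio normalization, 0.0793 with at least 1 count in any library, 0.0908 without regard to strand, and 0.0725 and 0.11 without control replicates 2 and 3. ECT2 had an adjusted p of 0.0919 without regard to strand and 0.0522 without control replicate 3, and PRC1 one of 0.0879 without control replicate 3.

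Of the 6 genes of chromosome structure 4 fell (66.7%, all genes tested 15.0%), with a median log2 change of -0.389. CDCA2, also called Repo-Man, which directs protein phosphatase 1 to chromatin at anaphase, had 98.0, 87.9 and 96.0 CPM in control and 54.1 and 47.9 CPM after co-culture, with a log2 fold change of -0.88 (SE 0.091, adjusted p = 0.000202). TOP2A, the topoisomerase that untangles sister chromatids, had 1271, 1095 and 1193 CPM in control and 757 and 726 CPM after co-culture, with a log2 fold change of -0.68 (SE 0.094, adjusted p = 0.000822). MKI67, the surface coat of mitotic chromosomes known as Ki-67, had 1039, 872 and 929 CPM in control and 724 and 726 CPM after co-culture, with a log2 fold change of -0.39 (SE 0.096, adjusted p = 0.0137). In each of them both co-cultured libraries were below the controls. NCAPH, the condensin I subunit that closes its ring, fell as well, with a log2 fold change of -0.39, and NCAPG, another subunit of condensin I, had one of -0.18 (adjusted p = 0.0966). SMC4, the ATPase shared by both condensins, had 503, 434 and 449 CPM in control and 504 and 529.9 CPM after co-culture, with a log2 fold change of 0.16 (SE 0.09, adjusted p = 0.194). Its co-cultured values were above all control values, by less than 2 CPM for replicate 1. Without control replicate 1 the value of SMC4 was 0.23 (adjusted p = 0.0029).

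Of the 8 members of the spindle checkpoint and anaphase, 3 fell (37.5%, all genes tested 15.0%), with a median log2 change of -0.287. TTK, or MPS1, the kinase that starts the checkpoint at unattached kinetochores, had 92.0, 94.9 and 95.2 CPM in control and 55.7 and 56.3 CPM after co-culture, with a log2 fold change of -0.75 (SE 0.075, adjusted p = 0.000175). CDC20, the activator of the anaphase-promoting complex that the checkpoint holds back, had 124, 108 and 121 CPM in control and 73.6 and 74.2 CPM after co-culture, with a log2 fold change of -0.67 (SE 0.086, adjusted p = 0.000554). BUB1, a checkpoint kinase at kinetochores, had 78.5, 74.5 and 77.7 CPM in control and 57.1 and 54.1 CPM after co-culture, with a log2 fold change of -0.47 (SE 0.078, adjusted p = 0.00204). The groups were separate in these genes, and the calls held under every alternative. UBE2C, the ubiquitin-conjugating enzyme of the anaphase-promoting complex, had a log2 fold change of -0.35 (SE 0.12, adjusted p = 0.0568) and MAD2L1, or MAD2, of -0.23 (SE 0.091, adjusted p = 0.083). On the same scale BUB1B, or BUBR1, had -0.21 (adjusted p = 0.162) and BUB3, which brings both BUB kinases to kinetochores, had -0.13 (adjusted p = 0.211). These 4 did not pass the test, although both co-cultured libraries were below the controls in UBE2C, MAD2L1 and BUB3. With upper-quartile normalization all 4 passed (adjusted p = 0.0168 to 0.0478), and without control replicate 1 UBE2C and MAD2L1 did (0.0115 and 0.0435). Over the 13 alternatives UBE2C stayed without a call in 7, MAD2L1 in 10, and BUB1B and BUB3 in 12 each. The smallest adjusted p of UBE2C was 0.00433, with at least 1 count in any library. PTTG1, or securin, the inhibitor of separase, had 146, 135 and 144 CPM in control and 156 and 143 CPM after co-culture, so that the groups overlapped, with a log2 fold change of 0.077 (SE 0.081, adjusted p = 0.496). With upper-quartile normalization the value of PTTG1 was -0.001. PTTG1 has near-identical copies elsewhere in the genome, and reads that map to several places are not counted.

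The centromere and kinetochore group had 12 members. Of the 11 tested, 4 fell (36.4%, all genes tested 15.0%), with a median log2 change of -0.2. CENPA, the histone H3 variant that marks centromeres, had 40.5, 33.0 and 36.7 CPM in control and 16.7 and 16.1 CPM after co-culture, a fall of 2.24-fold with a log2 fold change of -1.16 (SE 0.12, adjusted p = 0.000177). It shares 7% of its exon bases with SLC35F6. CENPF, a large protein of the outer kinetochore that binds dynein regulators, had 1323, 1045 and 1134 CPM in control and 658 and 652 CPM after co-culture, with a log2 fold change of -0.83 (SE 0.11, adjusted p = 0.000649). NUF2, the partner of NDC80 in the microtubule-binding NDC80 complex, had 101, 91.0 and 99.9 CPM in control and 63.2 and 64.6 CPM after co-culture, with a log2 fold change of -0.60 (SE 0.081, adjusted p = 0.000712). The 3 genes were separate between groups, and CENPE, the kinesin of the outer kinetochore, also fell, with a log2 fold change of -0.64. NDC80 itself had 164, 142 and 148 CPM in control and 159 and 162 CPM after co-culture, and the groups overlapped, with a log2 fold change of 0.081 (SE 0.085, adjusted p = 0.497). Its value was 0.14 (adjusted p = 0.0432) when control replicate 1 was left out. SPC24, another subunit of the NDC80 complex, had 72.2, 55.3 and 68.2 CPM in control and 63.8 and 63.7 CPM after co-culture, with a log2 fold change of -0.033 (SE 0.11, adjusted p = 0.846) and the largest p of the group. The sign of SPC24 turned without regard to strand and without control replicate 1 or 3. SPC25, the fourth subunit, had a log2 fold change of -0.44 (SE 0.29, adjusted p = 0.283) at only 20 to 47 counts per library. SPC25 has a further entry on a patch sequence. Reads that map to both entries are not counted, so its counts can understate its level. On the log2 scale KNL1, which carries the checkpoint proteins, had -0.14, SKA3, of the SKA complex on microtubules, had -0.099, CENPI had -0.15 and CENPK had -0.20, both of the inner kinetochore network, and these 4 were not called. CENPK passed without control replicate 1 (adjusted p = 0.00305). SKA1 had 1, 1 and 0 counts in control and 0 in both libraries after co-culture and was not tested.

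Some pairs of related genes had unequal values, while others were alike: NDC80 and SPC24, of one complex, had log2 fold changes of 0.081 and -0.033, and the 4 passenger complex members had -0.95 to -0.67. Ratios of counts within a library do not depend on how the library is scaled, and they are given for 4 pairs picked for their contrast after their values were seen. The ratio of NUF2 to NDC80 counts, subunits of one complex, was 0.612, 0.639 and 0.673 in control and 0.398 and 0.399 after co-culture. The ratio of CENPF to NDC80 was 8.05, 7.34 and 7.65 in control and 4.14 and 4.02 after co-culture. For condensin I, NCAPD2 over SMC4 was 0.59, 0.645 and 0.677 in control and 0.32 and 0.291 after co-culture. CDC25C over CDC25B was 0.208, 0.298 and 0.274 in control and 0.1 and 0.107 after co-culture. In each pair the co-cultured ratio was below every control ratio. A ratio shows unequal change and not that 1 of the 2 genes stayed the same.

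**Figure D3:**
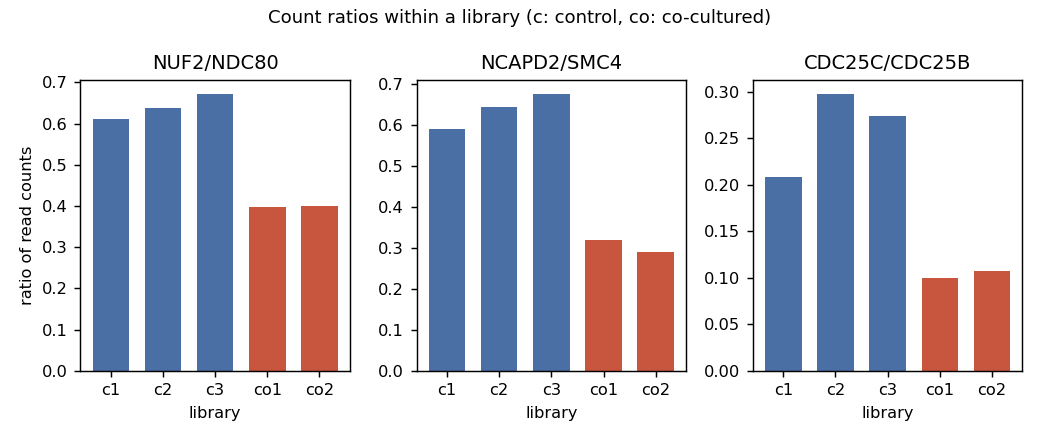
Ratio of read counts of 2 genes within each library (y axis, starting at 0) for NUF2 over NDC80, NCAPD2 over SMC4 and CDC25C over CDC25B, with 1 bar for each of the 3 control (c) and 2 co-cultured (co) libraries. Both co-cultured bars are lower than all control bars in each panel.

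Levels between genes were compared as CPM per kilobase of exon. In control, TOP2A had 184 CPM per kilobase, CENPF 99.9, UBE2C 83.0, TPX2 78.9 and MKI67 73.9. CENPA had 18.5, CDC25C 12.0 and CDCA3 10.9 CPM per kilobase, all below TOP2A, CENPF and MKI67. In co-cultured cells TOP2A had 115 and CENPF 56.0 CPM per kilobase.

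Other lists, chosen with earlier results of these data known, show how the mitotic genes compare with the rest of the cell cycle. Of 89 other mitotic genes, all tested, 36 fell (40.4%) and 11 rose (12.4%), with a median log2 change of -0.148. Over all genes tested 15.0% fell and 18.4% rose. On the log2 scale NCAPD2, a condensin I subunit, changed by -0.90 (SE 0.081, adjusted p = 0.000107) and CIT, the citron kinase of the midbody, by -0.82 (SE 0.078, adjusted p = 0.000142). By the same measure TUBG1, the gamma-tubulin that nucleates microtubules, rose by 0.72 and SMC2, the partner of SMC4 in condensin, by 0.51. Of 14 anaphase-promoting complex genes 6 fell (42.9%) and 1 rose (7.14%), with a median of -0.178. Among them CDC16 changed by -0.69 and ANAPC5 by -0.39 on the log2 scale, and ANAPC16 rose by 0.58 (adjusted p = 0.000605).

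The genes of DNA replication did not move one way. Of 45 tested, 10 fell (22.2%) and 11 rose (24.4%), with a median log2 change of 0.00726. Over all genes tested the shares were 15.0% lower and 18.4% higher. On the log2 scale the helicase subunits MCM5 and MCM7 changed by -0.61 and -0.54, while PCNA, the sliding clamp, and RFC2, a subunit of the loader of the clamp, rose by 0.53 and 0.50. The summed level of the 45 replication genes was 4585 to 4827 CPM in control and 4968 and 4869 CPM in co-cultured cells. Over the members it was 9208 to 10733 CPM in control and 7099 and 7158 CPM in co-cultured cells.

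**Figure D4:**
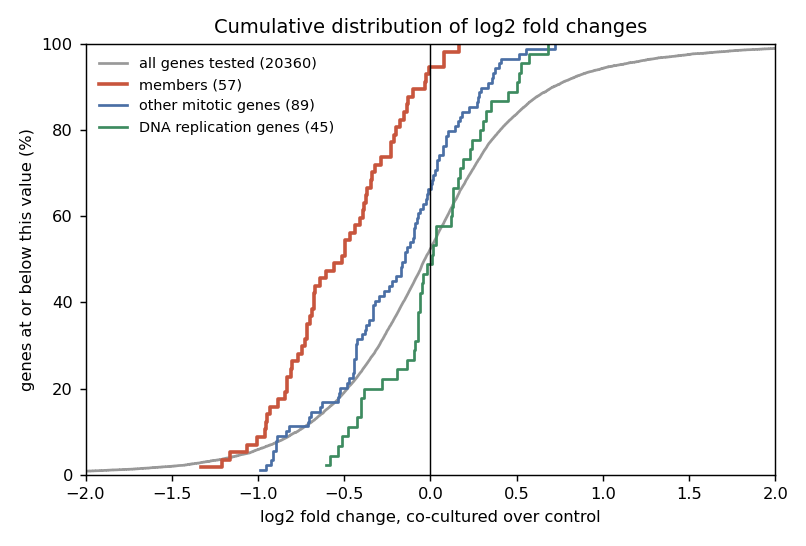
Share of genes at or below each log2 fold change (x axis, co-culture against control) for the 57 tested members, 89 other mitotic genes, 45 DNA replication genes and all 20360 genes tested. No test was made between the lists. The line of the members lies to the left of the other lines over most of the range, with a median of -0.511 against -0.148 for the other mitotic genes.

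Among 24 tested regulators of mitotic transcription 4 fell (16.7%) and 5 rose (20.8%), with a median log2 change of 0.0515. These shares were near those over all genes tested, of which 15.0% fell and 18.4% rose. CDKN1A, the CDK inhibitor p21, had 34.1, 24.8 and 23.7 CPM in control and 94.9 and 85.7 CPM after co-culture, and rose with a log2 fold change of 1.71 (SE 0.14, adjusted p = 7.72e-05). The groups did not overlap in CDKN1A. RB1, the retinoblastoma gene, had 237, 205 and 197 CPM in control and 334 and 335 CPM after co-culture, a log2 fold change of 0.65 (SE 0.093, adjusted p = 0.000989). On the log2 scale TFDP2, a partner of the E2F factors, changed by -0.67 and RBL2, the pocket protein p130, by -0.38, both lower. FOXM1 and MYBL2 (B-MYB), the activators of mitotic promoters, were looked at after their values were seen. FOXM1 had 185, 125 and 138 CPM in control and 175 and 179.8 CPM after co-culture, which overlapped, with a log2 fold change of 0.25 (SE 0.14, adjusted p = 0.219). MYBL2 had 151, 108 and 108 CPM in control and 189 and 192 CPM after co-culture and was higher, with a log2 fold change of 0.64 (SE 0.14, adjusted p = 0.00716).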

How the data were processed

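RNA of NCI-H209 cells from 3 control and 2 co-cultured libraries was sequenced from rRNA-depleted, directional libraries. The authors deposited raw read counts per gene, in STAR's gene count format, without strand and for each strand. The submitters' processing notes name CASAVA 1.8, STAR 2.6.1b, DESeq2 and GRCh38. Reads on several genes or places are not counted. The authors' table of the comparison holds their means, fold changes and p-values, and only its gene names were used. Counts of the library strand (column 4) were used, holding 92.3% to 93.1% of reads assigned to either strand. Groups came from the titles and treatment labels.

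Genes were kept by filterByExpr, normalized by TMM and tested with edgeR 4.0.16 (R 4.3.3), quasi-likelihood test, Benjamini-Hochberg adjustment over all 20360 genes. CPM uses TMM library sizes, except for the floor and the opposite-strand reads, where it uses the total counts of the library strand. Exon lengths come from the GENCODE annotation. Standard errors come from the F statistic and include the variation between libraries. The floor of 3 counts covers counting error only. The members and lists were chosen with earlier results of these data known, so counts of members are a description. In each functional group of 4 or more, values in every library are given for the 3 members with the smallest p and the 1 with the largest. They are also given for all members of smaller groups and all that were not tested. Of each other list, the 2 genes with the smallest p in each direction among those called are named, most by log2 fold change only. Alternatives were DESeq2 1.42.0, 2 other normalizations, 2 filters, counts without strand, a replicate block, leaving out each library and, added after seeing the data, summed entries of a symbol. The steps were tested on simulated data.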

Additional observations from a re-analysis of the deposited data

Results flagged for a closer look

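Reads on the strand opposite to the library strand enter only the alternative without regard to strand, and their CPM use total counts without TMM. Among members with at least 10 such counts in each co-cultured library, these reads were above the control libraries over 2 members. The number of members with that many such counts and the share over all genes were not computed, so this count is only a description. Over CCNA2 they averaged 26.4 CPM in the co-cultured libraries, with 18.6, 21.3 and 20 CPM in control replicates 1, 2 and 3 and 25.6 and 27.2 CPM in co-cultured replicates 1 and 2. These are 357, 368 and 382 counts against 484 and 420 counts, and opposite-strand reads made up 16.4% of the stranded reads over CCNA2. Over NCAPG they averaged 9.39 CPM in the co-cultured libraries, with 4.44, 7.51 and 6.8 CPM in control and 10.3 and 8.48 CPM in co-cultured cells. On the library strand CCNA2 fell and NCAPG was not called, so the opposite-strand level went the other way from the gene in CCNA2. No test was made of these values.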

How the results depend on the processing

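The number of members that fell was 41 as reported, 40 with DESeq2, 40 with median-ratio and 47 with upper-quartile normalization, 41 with at least 1 count in any library, 42 with at least 10 counts in every library, 37 without regard to strand and 41 with the entries of a symbol summed. Leaving out 1 library gave 28 to 45. The median log2 fold change of the members ran from -0.589 (upper-quartile) to -0.472 (without control replicate 1). Upper-quartile normalization raised the members meeting the study's criterion to 9, and leaving out a library gave 3 to 5. No member rose under the other settings, but leaving out a library gave 0 to 2, the 2 being NDC80 and SMC4 without control replicate 1.

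The replicate block gave 34 members lower. The replicate numbers were not taken to pair the libraries, since there are only 2 pairs and the labels name nothing shared. Deviations of same-numbered libraries from their group means had a correlation of -0.114 for replicate 1 and -0.067 for replicate 2. The deviations of the 2 co-cultured libraries mirror each other, so these values cannot decide whether the libraries were paired. With the block 8 members lost their call and UBE2C gained one (adjusted p = 0.0484). With it SPC24 had a log2 fold change of 0.012.

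Signs turned only in genes near 0. With upper-quartile normalization PTTG1 had -0.001. Without regard to strand CDC25B had 0.015, SPC24 0.023 and KIF11 0.041. Leaving out a library gave -0.117 to 0.103 for CDC25B, -0.135 to 0.048 for SPC24 and -0.053 to 0.053 for KIF11. The smallest p that permuting 3 against 2 libraries allows is 0.1. With all 5 libraries, differences of PTTG1, NDC80, SPC24, KIF11 and CDC25B were within the spread of these few libraries. For NDC80 this depended on control replicate 1, without which its adjusted p was 0.0432. The counts of KIF15, SKA1 and the primary entry of KIFC1 were at the floor.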

Other observations

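Some members have entries outside the primary assembly. KIFC1 had 31, 24 and 36 counts in control and 31 and 18 counts after co-culture at an entry on an alternate haplotype sequence, while its primary entry had no more than 3 counts in any library. SPC25 had 47, 32 and 46 counts in control and 35 and 20 counts after co-culture at its primary entry, and 32, 25, 30, 31 and 14 counts in the same order at an entry on a patch sequence. With the entries of a symbol summed, 41 members fell. Summing does not recover reads that map to several entries, which are not counted at any of them.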
